A study of Homo sapiens with 17 samples.

Results

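Ribosome biogenesis is the assembly of the small and large ribosomal subunits around ribosomal RNA in the nucleolus, and in leukaemia cells it is a main output of the transcription factor MYC. The 40 genes described here were picked by name as ribosome biogenesis factors and known MYC targets, and their rows were read from 58278 gene identifiers in each of 17 RNA-seq libraries. All 40 were found, and all 40 passed the filter on low counts in each comparison; the lowest count of any of them in any library was 140 reads. All groups were MOLM13 cells, a human line established from acute myeloid leukaemia and driven by the fusion oncoprotein MLL-AF9. One set of libraries held cells with a non-targeting CRISPR guide (NT, n = 3), a HOXA9 knockout (HOXA9_KO, n = 3) or a SAFB knockout (SAFB_KO, n = 3). A second set held a MEIS1 knockout (MEIS1_KO, n = 4) with its own non-targeting controls (NT_MEIS1ex, n = 4). HOXA9 and MEIS1 are homeodomain proteins on which MLL-rearranged leukaemia relies, and SAFB is a protein of the nuclear matrix; per the series title, HOXA9 and SAFB form a repressive complex. The labels give no time after editing, no guide sequence, and no word on whether replicates were grown apart or come from 1 clone, so p-values measure only the spread between these libraries.

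RNA polymerase I, with its factors UBTF and RRN3 and its subunits POLR1A and POLR1B, transcribes the precursor of ribosomal RNA. Small nucleolar ribonucleoproteins (snoRNPs) then guide its chemical modification: the box C/D particles, with the methyltransferase fibrillarin (FBL), NOP56 and NOP58, and the H/ACA particles, with the pseudouridine synthase dyskerin (DKC1), NHP2 and GAR1. Assembly factors such as NOP14, RRP9, RRP12, BYSL, TSR1 and PNO1 build the small subunit. NOP2, NOP16, WDR12, GNL3, NIP7, RRP1B, LYAR, PES1 and BOP1 act mostly on the large one, and nucleolin (NCL) and nucleophosmin (NPM1) are abundant proteins of the nucleolus. MYC binds E-boxes, of which CACGTG is the canonical form, as a dimer with MAX, and its target genes also reach into polyamine synthesis (ODC1, SRM), nucleotide synthesis (CAD, PPAT, PAICS), translation initiation (EIF4E, EIF4A1, EIF4EBP1), the mitochondrial chaperonin (HSPD1, HSPE1) and the arginine methyltransferase PRMT5. LDHD, D-lactate dehydrogenase of mitochondria, is listed with them but is no ribosome factor.

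The motif CACGTG is its own reverse complement and so was read on both strands. It was common near the start sites of these genes, which had been picked in part as known MYC targets. RefSeq promoter windows on GRCh38.p14, from 250 bases before to 50 bases after the start site, were on hand for 33 of the 40, and 17 of the 33 (51.5%) held it in at least 1 window. The share was 10.9% of 15272 protein-coding genes with a window, 8.77% of 27305 genes of all kinds and 28.0% of 168 other genes of the pathways. A GC box (GGGCGG) was about as frequent in the 33 (69.7%) as in protein-coding genes (65.2%). NOP58, NOLC1, RRP12, BOP1, RRP1B, EIF4EBP1 and LDHD had no window. The stretches of members whose values the results turn on follow, 5′ to 3′ on the strand of the gene, with the motif in capitals.
ODC1, chr2:10448024-10448053, minus strand: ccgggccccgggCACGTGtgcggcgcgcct
ODC1, chr2:10447990-10448019, minus strand: ggcctgcggagaCACGTGgtcgccgagcgg
SRM, chr1:11060200-11060229, minus strand: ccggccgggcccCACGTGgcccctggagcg
FBL, chr19:39846356-39846385, minus strand: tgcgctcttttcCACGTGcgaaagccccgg
RRP9, chr3:51941892-51941921, minus strand: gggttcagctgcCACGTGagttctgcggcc
PNO1, chr2:68157885-68157914, plus strand: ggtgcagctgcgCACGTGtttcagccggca
GAR1, chr4:109815781-109815810, plus strand: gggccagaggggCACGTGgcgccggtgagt
NOP2, chr12:6568242-6568268, minus strand: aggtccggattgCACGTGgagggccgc
PPAT, chr4:56435780-56435809, minus strand: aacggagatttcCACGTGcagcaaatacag
PAICS, chr4:56435780-56435801, plus strand: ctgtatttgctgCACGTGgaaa

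ODC1 held the motif both before and after its start, with first bases at offsets of -29 and 6 from the start base. FBL (offset 7), PNO1 (10), GAR1 (32) and NOP2 (36) held it just inside the transcribed part, RRP9 at the start itself (-5) and SRM farther upstream (-199). PPAT and PAICS, which code for 2 enzymes of purine synthesis, have RefSeq start sites 136 bases apart on opposite strands, and the motif printed for them is a single site seen from either side. HSPD1 and HSPE1 are likewise divergent. The 104 bases between their start sites, chr2:197500275-197500378 on the plus strand, hold 1 motif that serves as upstream sequence for both.
HSPD1-HSPE1: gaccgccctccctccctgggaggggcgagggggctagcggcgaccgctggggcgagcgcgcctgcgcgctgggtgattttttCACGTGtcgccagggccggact

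Members with the motif and members without it were both called in both directions in HOXA9_KO. Against NT, 5 of the 17 members with it were higher in HOXA9_KO and 7 lower, beside 1 and 6 of the 16 without it. In SAFB_KO the numbers were 10 higher and 0 lower of 17 beside 6 and 0 of 16, and in MEIS1_KO 0 and 4 of 17 beside 0 and 2 of 16. No test was made of these counts, and a match of letters does not show that a factor was bound.

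Between 23264176 and 67842104 reads were assigned to genes in each library. Levels are CPM, the count set to a fixed library size after scaling by the TMM method within each set, and changes are log2 fold changes ± SE from edgeR's quasi-likelihood test, called at a Benjamini-Hochberg adjusted p under 0.05 over all genes tested. The targeted genes were lower in every library of their own knockout than in every control library, by 0.93 ± 0.05 (HOXA9), 0.89 ± 0.07 (SAFB) and 1.54 ± 0.07 (MEIS1) on the log2 scale. MEIS1 RNA also fell by 1.54 ± 0.06 in HOXA9_KO (16.1 to 17.7 CPM, against 48.4 to 50.4 CPM in NT). In SAFB_KO it fell by 0.31 ± 0.05. All 9 markers of the myeloid line were present in every group, 6 of 7 erythroid markers lay under 0.5 CPM (EPOR was the exception), and so did 4 of 7 lymphoid markers in NT and 6 of 7 in the other groups. The summed CPM of the myeloid markers, mostly LYZ, moved with the knockouts: 5066 to 5192 in NT, 29158 to 32087 in HOXA9_KO, 13093 to 14793 in SAFB_KO, 3979 to 5619 in NT_MEIS1ex and 7578 to 7926 in MEIS1_KO. Not every marker followed the sum. FLT3 fell by 1.07 ± 0.03 in HOXA9_KO and by 0.30 ± 0.03 in SAFB_KO, and MPO fell by 0.17 ± 0.06 in SAFB_KO. All other markers rose in each of these knockouts, MPO in HOXA9_KO among them. Mitochondrial rRNA took 22.5% to 28.4% of assigned reads in NT, 31.9% to 35.5% in HOXA9_KO and 24.9% to 27.0% in SAFB_KO, and at most 0.0094% in the MEIS1 set. Reads outside annotated genes made up 16.4% to 18.1% in NT, 8.65% to 9.27% in HOXA9_KO and 10.6% to 12.7% in SAFB_KO. The part of these shifts in the results was not tested, apart from leaving out the mitochondrial genes, which changed no count of members in the 3 knockouts. In bulk libraries fewer cells of a type and less RNA per cell cannot be told apart.

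The members ran from 2.43 to 264.3 CPM per kb of exon in NT and from 5.67 to 431 in NT_MEIS1ex. This scale was used to set genes against each other, but the order was not the same in the 2 sets. SRM ranked 29 in NT and 5 in NT_MEIS1ex, and GNL3 ranked 6 and 21. NPM1 stood highest in NT, at 264.3 ± 3.31 CPM per kb (SD, n = 3), ahead of EIF4EBP1 at 129 ± 3.64, HSPD1 at 114.8 ± 1.987 and NCL at 48.0 ± 1.04, whose neighbour in the order, NOLC1 at 46.2 ± 0.653, lay within about 2 SD of it. GAR1 (2.998 ± 0.381) and LDHD (2.43 ± 0.0601) were the lowest. NT_MEIS1ex had the same 4 genes at the top, with EIF4EBP1 first at 431 ± 24.5 CPM per kb (SD, n = 4) and NPM1 second at 350 ± 13.7. NCL (135 ± 7.53) and SRM (132 ± 7.85), next after HSPD1, lay closer together than either SD in NT_MEIS1ex. Mean CPM was above that of NT in 38 of the 40 members, by a median ratio of 1.76 that ran from 0.724 for GNL3 to 12.9 for SRM, with FBL at 5.95 and BOP1 at 5.67. The 2 sets were scaled apart and prepared with very different shares of mitochondrial rRNA, so these ratios are a description, and changes were taken only within a set. Replicates agreed closely: the median coefficient of variation of a member was 3.32% in NT, 3.34% in HOXA9_KO, 2.91% in SAFB_KO, 5.39% in NT_MEIS1ex and 3.19% in MEIS1_KO.

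**Figure D1:**
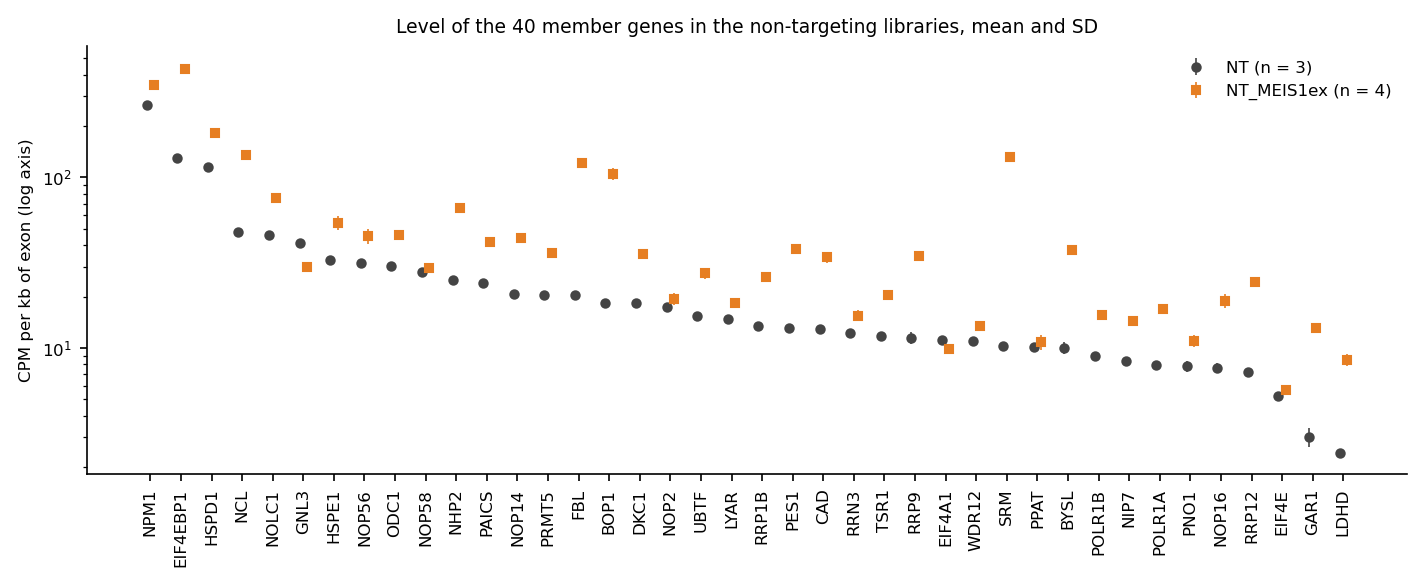
Level of each member in the non-targeting libraries as CPM per kb of exon on a log axis, with the mean and SD of NT (circles, n = 3) and NT_MEIS1ex (squares, n = 4), in the order of NT. SRM, FBL and BOP1 stand far higher in NT_MEIS1ex (12.9, 5.95 and 5.67 times the CPM in NT), and GNL3 lower (0.724 times), in sets that were scaled apart.

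In HOXA9_KO members moved in both directions, as all tested genes did. Of the 40, 16 fell and 9 rose against NT, in a comparison where 29.9% of all 18876 tested genes fell and 27.6% rose. The enzymes of purine and pyrimidine synthesis, most snoRNP proteins and the translation repressor gene EIF4EBP1 were in the group that fell, while FBL and several assembly factors rose. The median change of the members was -0.07, close to that of all tested genes (-0.07), and 17 members lay lower in every HOXA9_KO library than in every NT library and 9 higher (33.5% and 29.1% of all genes). Among the 6559 genes with a mean of at least 20 CPM, a level chosen after that of the members was known, 48.4% rose, 28.3% fell and the median was 0.10, against a median of -0.06 over the 38 members in that range, of which 9 rose and 15 fell. The balance of calls depended on the scaling: with each library set to its nuclear protein-coding counts, which lowers the median of all genes by 0.25, it became 33 lower and 1 higher (FBL). Of all 18876 genes, 9293 were lower and 2861 higher with that scaling. Relative to the median of all genes, 21 members were above it and 19 below under either scaling. Apart from a condition of a 1.2-fold change, which left 7 lower and 3 higher, 15 of the 16 falls kept their call under each setting tried (all but that of NOP14), and of the 9 rises FBL alone did.

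**Figure D2:**
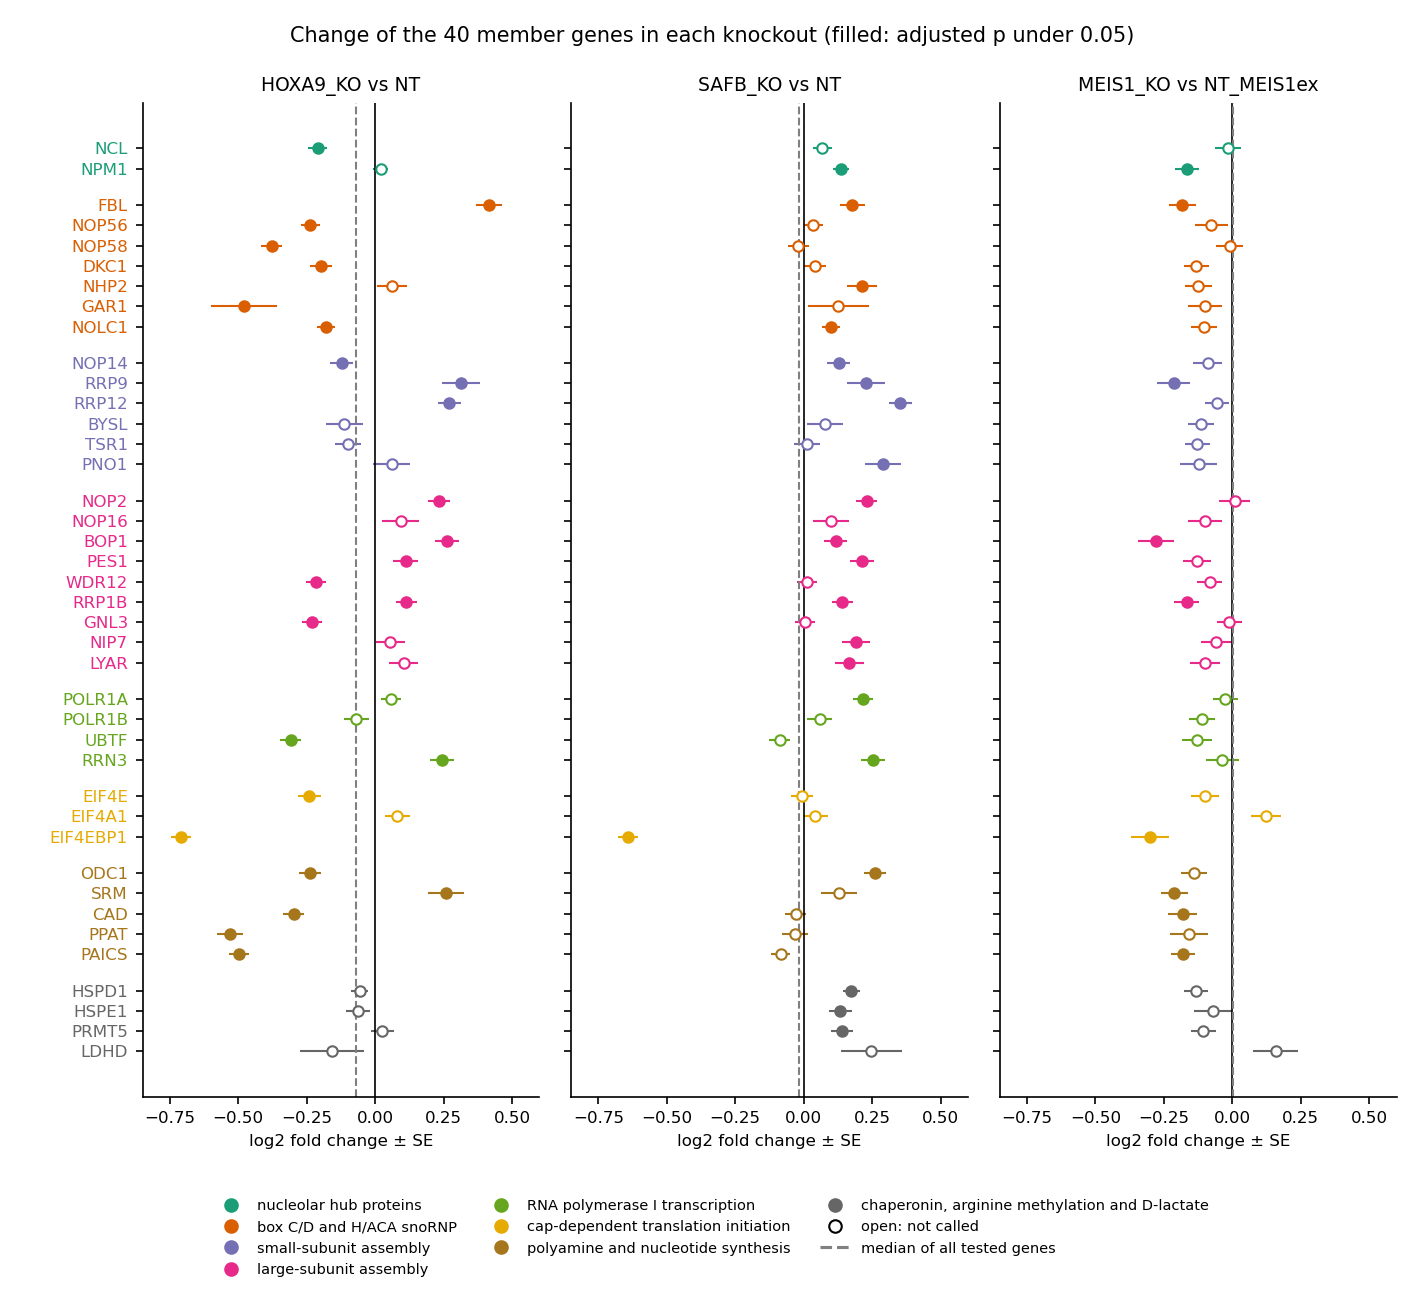
Log2 fold change ± SE (x axis) of the 40 members (y axis, coloured by role) in each knockout against its own controls; filled points passed at an adjusted p under 0.05, and the dashed line is the median of all tested genes. EIF4EBP1 is the leftmost point in all 3 panels, while FBL is highest in HOXA9_KO; under scaling to nuclear protein-coding counts 13 members of HOXA9_KO and 10 of SAFB_KO that were called under either scaling change sign.

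SAFB_KO was compared with the same NT libraries, so its values share those controls. There 20 members rose and only EIF4EBP1 fell, in a comparison where 20.2% of all 18876 genes rose and 15.3% fell. The largest rises were those of RRP12 and PNO1, both small-subunit factors, ODC1 of polyamine synthesis, and RRN3 and NOP2. The median over the members was 0.13, against -0.02 over all genes, and 21 members were higher in every SAFB_KO library than in every NT library and 2 lower (24.1% and 22.3% of all genes). The background was nearer at the members' own level: of the 6559 genes at a mean of at least 20 CPM 42.4% rose, 14.2% fell and the median was 0.09. With scaling to nuclear protein-coding counts, which lowers the median of all genes by 0.14, 3 members were higher (RRP12, RRN3 and ODC1) and 12 lower. Of all 18876 genes, 1712 were higher and 5535 lower with that scaling, shares near those of the members. Relative to the median of all genes, 34 members were above it and 6 below under either scaling. A filter at a mean of 2 CPM gave 13 and 3 members, beside 2780 and 2727 of 11793 genes. With that filter 27 members were above the median of all genes and 13 below. All rises but those of RRP12 and PNO1 were under 1.2-fold.

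In MEIS1_KO fewer genes were called. Of the 40 members, 9 fell, 31 were not called and none rose (edgeR; 21 and 1 at an unadjusted p under 0.05, and 12 and 0 with DESeq2), in a comparison where 3.84% of 15744 genes fell and 4.97% rose. The 9 were EIF4EBP1, BOP1, RRP9, SRM, FBL, CAD, PAICS, NPM1 and RRP1B. The median over the members was -0.11, against 0.00 over all genes and -0.02 over the 7503 genes with a mean of at least 20 CPM, of which 6.10% fell and 6.14% rose. In 18 members every MEIS1_KO library lay below every control library and in 0 above (7.28% and 8.43% of all genes). Relative to the median of all genes, 3 members were above it and 37 below, with TMM scaling and with scaling to nuclear protein-coding counts. The changes were small, from -0.30 to -0.17 among the 9, and only EIF4EBP1 and BOP1 exceeded 1.2-fold and kept their call under each setting tried. The count moved when 1 library was left out: it was 2 without NT_MEIS1ex replicate 4, and 5, 4 and 3 without MEIS1_KO replicates 1, 2 and 3.

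The knockouts of the first set were also compared directly, which takes NT out of the comparison. In HOXA9_KO 26 members were lower than in SAFB_KO and 2, FBL and BOP1, were higher, in a comparison where 20.5% of all 18876 genes were lower and 20.1% higher. The median over the members was -0.17, against -0.02 over all genes and 0.01 over genes with a mean of at least 20 CPM, of which 29.5% were lower and 34.2% higher. In 28 members every HOXA9_KO library lay below every SAFB_KO library, a pattern that 24.6% of all genes showed, and FBL and BOP1 were the 2 with every library above (23.6% of all genes). The members stayed mostly lower under every setting tried, with 21 to 34 called lower and 1 to 3 higher, apart from the condition of a 1.2-fold change, which left 10 lower and 0 higher. Scaling to nuclear protein-coding counts lowers the median of all genes here by 0.11, and gave 5845 of all 18876 genes lower and 2449 higher. Under either scaling 8 members were above the median of all genes and 32 below.

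**Figure D3:**
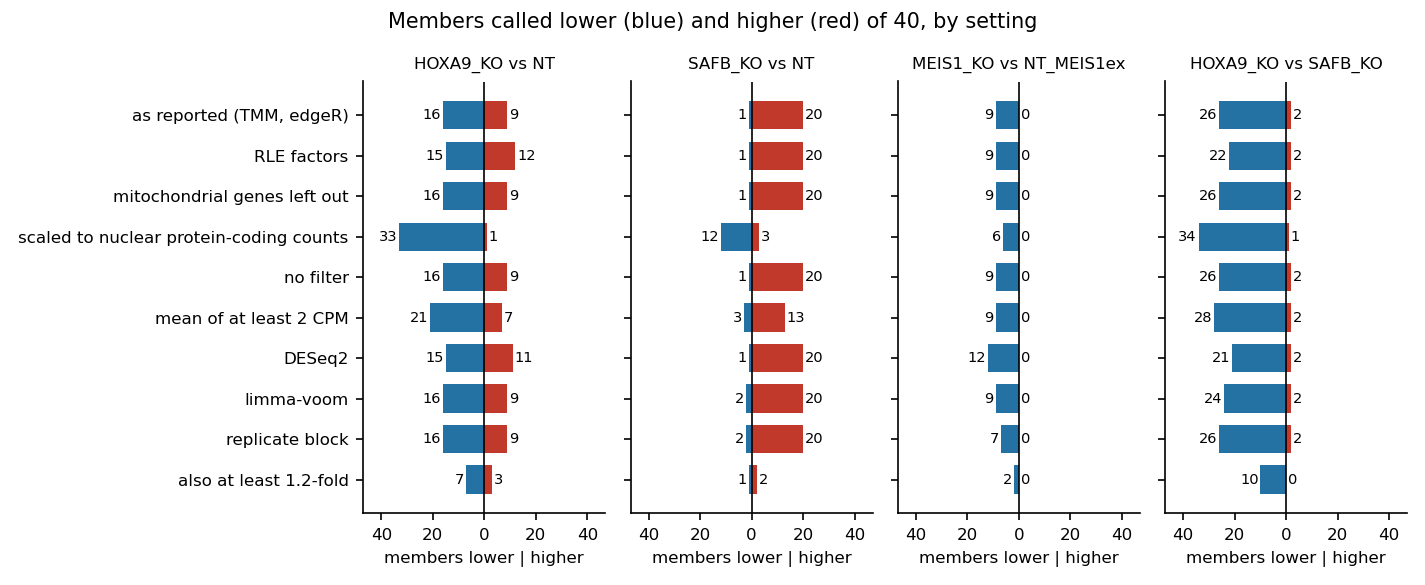
Number of the 40 members called lower (bars to the left) and higher (bars to the right) in each comparison, by processing setting. Scaling to nuclear protein-coding counts turns 9 higher and 16 lower into 1 and 33 in HOXA9_KO, and 20 and 1 into 3 and 12 in SAFB_KO. Of all 18876 genes it leaves 2861 higher and 9293 lower in HOXA9_KO, and 1712 and 5535 in SAFB_KO. MEIS1_KO (0 higher) and HOXA9_KO against SAFB_KO (0 to 2 higher) keep their direction.

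The member with the largest change in each knockout was EIF4EBP1 (ENSG00000187840.4, GRCh38 chromosome 8, 38030341 to 38060365, plus strand). It codes for 4E-BP1, which binds the cap-binding protein EIF4E and holds back cap-dependent translation until mTOR phosphorylates it. The NT libraries gave 138.6, 142.8 and 135.0 CPM, those of HOXA9_KO 84.8, 84.9 and 84.7 CPM, and those of SAFB_KO 89.6, 89.0 and 88.4 CPM. Every library of either knockout was far below every control, and the libraries of each knockout lay within 2 CPM of each other. It fell by 0.71 ± 0.04 in HOXA9_KO (38.9% lower, adjusted p 8.39e-23) and by 0.64 ± 0.04 in SAFB_KO (35.9% lower, adjusted p 2.32e-20). Between the knockouts the difference of -0.07 ± 0.04 did not pass (adjusted p 0.139); with scaling to nuclear protein-coding counts it was -0.18 and passed. In the MEIS1 set the controls gave 501.5, 444.4, 449.2 and 455.7 CPM and the MEIS1_KO libraries 318.5, 408.6, 375.3 and 400.7 CPM, again with no overlap but with a wider spread. It fell by 0.30 ± 0.07 (18.8% lower, adjusted p 0.0112, 0.048 at most over the settings tried). The fall in HOXA9_KO exceeded that in MEIS1_KO by 0.37 ± 0.09 (adjusted p 0.00104). With TMM scaling EIF4EBP1 was the only member called in the same direction in all 3 knockouts; with scaling to nuclear protein-coding counts PAICS was called lower in all 3 as well.

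Of the other 2 genes of initiation, 1 was called in HOXA9_KO. EIF4E, the cap-binding protein, fell by 0.24 ± 0.04 in HOXA9_KO (73.9 ± 0.461 to 62.6 ± 2.22 CPM; SD, n = 3) and stood at -0.01 ± 0.04 in SAFB_KO and -0.10 ± 0.05 in MEIS1_KO, neither of which passed, though with scaling to nuclear protein-coding counts the value in SAFB_KO was -0.15 and did. The helicase gene EIF4A1 did not pass in any knockout (0.08 ± 0.05, 0.04 ± 0.05 and 0.12 ± 0.05), but was called lower in HOXA9_KO with that scaling (-0.17). Of its exon sequence 48.6% also belongs to other genes of the same strand, so its count is uncertain.

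**Figure D4:**
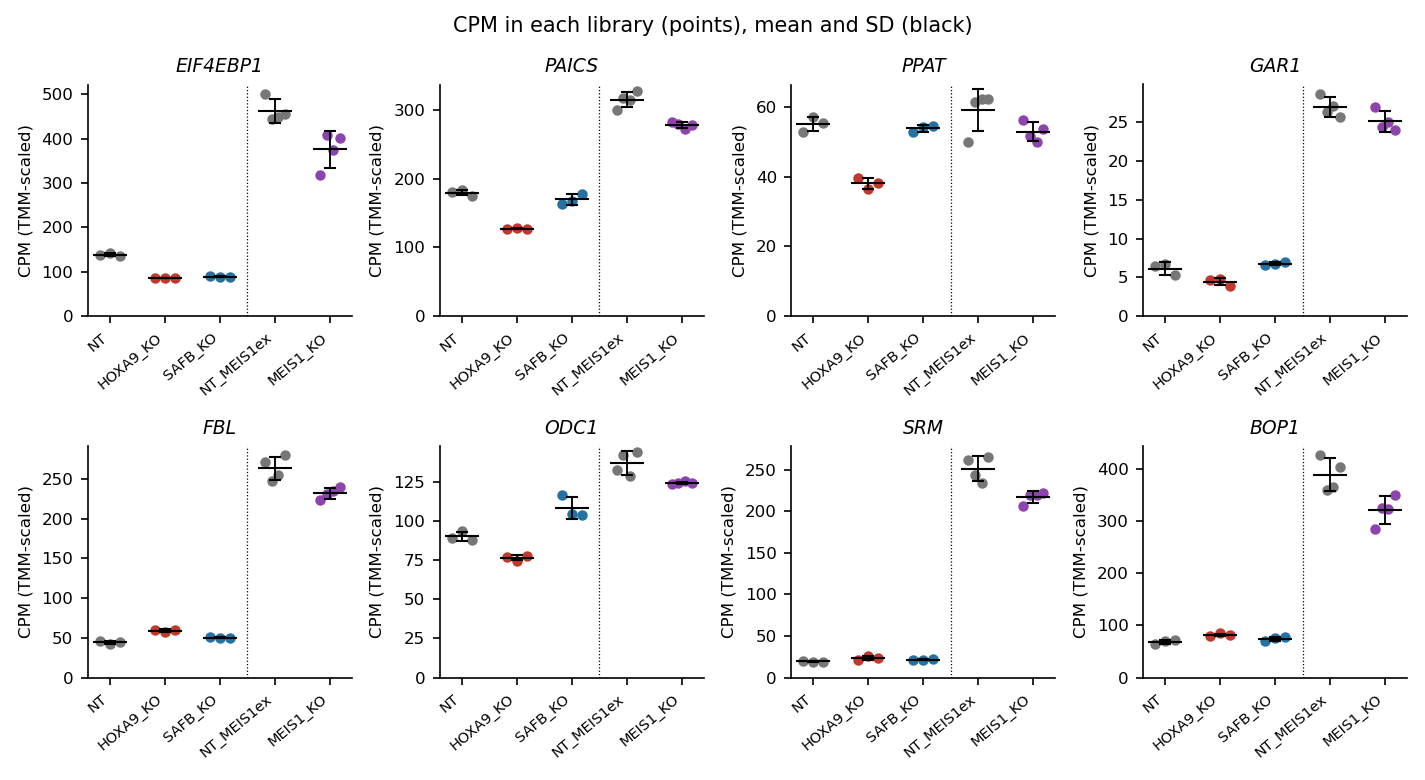
CPM of 8 members in every library (points), with the mean and SD of each group (black), for the HOXA9 and SAFB set (left of the dotted line) and the MEIS1 set (right), which were scaled apart. EIF4EBP1 lies at 84.7 to 84.9 CPM in HOXA9_KO and 88.4 to 89.6 CPM in SAFB_KO against 135.0 to 142.8 CPM in NT; ODC1 lies below NT in HOXA9_KO and above it in SAFB_KO.

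The 2 purine synthesis genes fell after loss of HOXA9. PPAT (chromosome 4, 56393362 to 56435615, minus strand), the amidotransferase that commits the pathway, gave 52.8, 57.0 and 55.5 CPM across the NT libraries against 39.6, 36.5 and 38.2 CPM after HOXA9 loss. PAICS (chromosome 4, 56435741 to 56464579, plus strand), a later enzyme of the same pathway, gave 181.2, 183.3 and 175.0 CPM across the NT libraries against 127.0, 128.6 and 126.6 CPM after HOXA9 loss. Neither gene's groups overlapped. PPAT fell by 0.53 ± 0.05 (adjusted p 1.00e-13) and PAICS by 0.50 ± 0.04 (adjusted p 1.53e-17), about 30% each, and both calls held under each setting tried. In SAFB_KO the pair stood at 52.7, 54.3 and 54.4 CPM (PPAT) and 163.2, 168.0 and 178.0 CPM (PAICS), with changes of -0.03 ± 0.05 and -0.08 ± 0.03 that did not pass (adjusted p 0.634 and 0.0539), but with scaling to nuclear protein-coding counts both were called lower there, at -0.17 and -0.22. Both were lower in HOXA9_KO than in SAFB_KO, by 0.50 ± 0.05 and 0.41 ± 0.04 (adjusted p 2.99e-12 and 3.37e-14). In MEIS1_KO, PAICS fell by 0.18 ± 0.04 (adjusted p 0.0159), from 300.2, 316.8, 315.1 and 327.1 CPM to 282.5, 279.2, 271.9 and 278.4 CPM. PPAT, at -0.16 ± 0.07, did not pass (adjusted p 0.168). For both genes the effect in HOXA9_KO was below that in MEIS1_KO (differences of -0.33 ± 0.08 and -0.28 ± 0.06, adjusted p 0.00152 and 0.000315). CAD, which starts pyrimidine synthesis, fell by 0.30 ± 0.04 in HOXA9_KO and by 0.18 ± 0.05 in MEIS1_KO, and stood at -0.03 ± 0.04 in SAFB_KO; with scaling to nuclear protein-coding counts it was called lower in SAFB_KO (-0.17) and not called in MEIS1_KO (-0.15).

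In polyamine synthesis the 2 members went apart in HOXA9_KO. ODC1 (chromosome 2, 10439968 to 10448504, minus strand), the rate-limiting ornithine decarboxylase and a textbook MYC target, gave 89.1, 93.4 and 87.7 CPM (NT), 77.1, 74.6 and 77.5 CPM (HOXA9_KO) and 116.3, 104.3 and 103.5 CPM (SAFB_KO). NT sits between the knockouts with no overlap on either side. It fell by 0.24 ± 0.04 in HOXA9_KO (adjusted p 2.66e-06) and rose by 0.26 ± 0.04 in SAFB_KO (adjusted p 7.06e-07). The direct difference was -0.50 ± 0.04 (adjusted p 1.94e-14), and all 3 calls held under each setting tried, apart from the 1.2-fold condition, which the fall and the rise against NT both missed. In MEIS1_KO it stood at -0.14 ± 0.05 (adjusted p 0.0819), although its 4 libraries, at 123.4 to 125.1 CPM, all lay below the controls at 128.8 to 144.1 CPM. SRM (chromosome 1, 11054584 to 11060024, minus strand), spermidine synthase, gave 20.4, 18.9 and 19.1 CPM across the NT libraries against 21.2, 25.3 and 23.5 CPM after HOXA9 loss. It rose there by 0.26 ± 0.07 (adjusted p 0.000787), a call lost under scaling to nuclear protein-coding counts (0.01). In MEIS1_KO it fell by 0.21 ± 0.05 (adjusted p 0.0133), from 261.9, 243.8, 233.6 and 264.9 CPM to 206.1, 219.8, 219.7 and 221.5 CPM. In SAFB_KO its change of 0.13 ± 0.07 did not pass.

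Among the snoRNP genes FBL stood against its partners. FBL (chromosome 19, 39834458 to 39846414, minus strand), the methyltransferase of box C/D particles, gave 45.9, 42.2 and 44.7 CPM (NT), 60.3, 57.0 and 60.1 CPM (HOXA9_KO) and 50.5, 50.3 and 49.6 CPM (SAFB_KO). The 3 groups did not overlap. It rose by 0.42 ± 0.05 in HOXA9_KO (33.5% higher, adjusted p 5.78e-11) and by 0.18 ± 0.05 in SAFB_KO (adjusted p 0.0020); the first call held under each setting tried, and the second fell to 0.04 with scaling to nuclear protein-coding counts. Its core partners in the same particle did otherwise in HOXA9_KO. NOP58 (chromosome 2, 202265716 to 202303666, plus strand) gave 92.3, 92.9 and 89.6 CPM across the NT libraries against 71.0, 69.0 and 71.7 CPM after HOXA9 loss, and fell by 0.38 ± 0.04 (adjusted p 4.18e-12). NOP56 fell by 0.24 ± 0.03, from 169 ± 5.69 to 144 ± 2.35 CPM. In SAFB_KO neither passed (-0.02 ± 0.04 and 0.03 ± 0.03), but both were called lower there with scaling to nuclear protein-coding counts (-0.16 and -0.10). In MEIS1_KO the order was the other way, with FBL lower by 0.18 ± 0.05 (271.1, 247.2, 255.3 and 279.4 CPM to 223.5, 230.6, 234.1 and 239.8 CPM, adjusted p 0.0267) and NOP58 at -0.01 ± 0.05.

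Among the H/ACA proteins, GAR1 (chromosome 4, 109815510 to 109824740, plus strand) was one of the lowest members, with 6.397, 6.75 and 5.26 CPM (NT), 4.64, 4.73 and 3.92 CPM (HOXA9_KO) and 6.56, 6.66 and 6.93 CPM (SAFB_KO). The HOXA9_KO libraries were below all others, and the spread was wide for the level. It fell by 0.48 ± 0.12 in HOXA9_KO (adjusted p 0.000584) and stood at 0.13 ± 0.11 in SAFB_KO. Its difference of -0.61 ± 0.12 between the knockouts was the largest of all members (adjusted p 5.76e-05). DKC1, the pseudouridine synthase, fell by 0.20 ± 0.04 in HOXA9_KO and NOLC1, a nucleolar chaperone of snoRNPs, by 0.18 ± 0.03. NHP2 stood at 0.06 ± 0.05 there and rose by 0.21 ± 0.05 in SAFB_KO; with scaling to nuclear protein-coding counts it was called lower in HOXA9_KO (-0.19) and not called in SAFB_KO (0.07). Of the 7 snoRNP genes, 5 fell and 1 rose in HOXA9_KO, 0 fell and 3 rose in SAFB_KO, and 1 fell and 0 rose in MEIS1_KO. Of all genes 29.9% fell and 27.6% rose in HOXA9_KO, 15.3% and 20.2% in SAFB_KO, and 3.84% and 4.97% in MEIS1_KO. With scaling to nuclear protein-coding counts SAFB_KO turned to 3 lower and 0 higher, beside 5535 and 1712 of 18876 genes. In HOXA9_KO against SAFB_KO 6 of the 7 were lower and FBL higher, where 20.5% and 20.1% of all genes were.

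Of the nucleolar pair, NCL gave 335.6, 324.7 and 338.3 CPM across the NT libraries against 269.7, 298.3 and 295.2 CPM after HOXA9 loss, and fell by 0.21 ± 0.03 (adjusted p 9.45e-07). The SAFB_KO libraries gave 364.6, 339.2 and 343.0 CPM, above every NT library, but its change of 0.07 ± 0.03 did not pass (adjusted p 0.123), and in MEIS1_KO, at 950.6, 943.3, 929.7 and 883.2 CPM against 1014, 907.5, 921.8 and 903.6 CPM in its controls, it stood at -0.02 ± 0.05 with overlap. NPM1, the shuttling chaperone mutated in many myeloid leukaemias, went another way. It gave 1008, 1026 and 1001 CPM across the NT libraries against 1049, 1010 and 1019 CPM after HOXA9 loss, with overlap and a change of 0.02 ± 0.03, which with scaling to nuclear protein-coding counts became -0.23 and was called. In SAFB_KO, at 1128, 1096 and 1110 CPM, it rose by 0.14 ± 0.03 (adjusted p 1.2e-04; -0.0037 with scaling to nuclear protein-coding counts). In MEIS1_KO it fell by 0.17 ± 0.04 (adjusted p 0.0245), from 1319, 1288, 1341 and 1411 CPM to 1192, 1185, 1180 and 1218 CPM.

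Of the 6 small-subunit factors, 2 rose and 1 fell in HOXA9_KO, 4 rose in SAFB_KO and 1 fell in MEIS1_KO. Of all genes, 27.6% rose and 29.9% fell in HOXA9_KO, 20.2% rose in SAFB_KO and 3.84% fell in MEIS1_KO. With scaling to nuclear protein-coding counts HOXA9_KO had 0 higher and 4 lower, SAFB_KO 1 and 1, and MEIS1_KO 0 and 0. Of all 18876 genes that scaling gave 2861 and 9293 in HOXA9_KO and 1712 and 5535 in SAFB_KO. RRP12 (chromosome 10, 97356358 to 97426076, minus strand), an export and assembly factor, gave 58.7, 62.9 and 64.1 CPM (NT), 75.6, 73.4 and 74.7 CPM (HOXA9_KO) and 75.8, 81.6 and 79.0 CPM (SAFB_KO). It rose by 0.27 ± 0.04 in HOXA9_KO (adjusted p 2.95e-07) and by 0.35 ± 0.04 in SAFB_KO (adjusted p 1.35e-09), its rise in HOXA9_KO shrinking to 0.02 with scaling to nuclear protein-coding counts. RRP9, a protein of the U3 snoRNP, gave 16.7, 19.5 and 18.01 CPM (NT), 24.5, 21.1 and 21.8 CPM (HOXA9_KO) and 20.2, 20.7 and 22.5 CPM (SAFB_KO). Its rises of 0.31 ± 0.07 and 0.23 ± 0.07 passed (adjusted p 0.000142 and 0.00794) and shrank to 0.06 and 0.09 with that scaling. In MEIS1_KO it fell by 0.21 ± 0.06 (58.3, 50.7, 52.4 and 56.6 CPM to 45.6, 50.5, 47.2 and 44.5 CPM, adjusted p 0.0326). PNO1, which binds the 3′ end of the small-subunit RNA precursor, rose by 0.29 ± 0.07 in SAFB_KO (20.5, 22.5 and 19.7 CPM to 26.5, 25.4 and 24.8 CPM, adjusted p 0.000424) and stood at 0.06 ± 0.07 in HOXA9_KO; with that scaling the first was not called (0.15) and the second was called lower (-0.19). NOP14 fell by 0.12 ± 0.04 in HOXA9_KO and rose by 0.13 ± 0.04 in SAFB_KO (-0.01 with that scaling); 17.1% of its exon sequence lies opposite NOP14-AS1, and the sources used here do not say whether the counts used strand. BYSL and TSR1 did not pass in any knockout, with changes of -0.13 to 0.08, but with scaling to nuclear protein-coding counts they were called lower in HOXA9_KO, at -0.36 and -0.35.

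Of the 9 large-subunit factors, 4 rose and 2 fell in HOXA9_KO, where 27.6% and 29.9% of all genes did. In SAFB_KO 6 rose (20.2% of all genes) and in MEIS1_KO 2 fell (3.84% of all genes). With scaling to nuclear protein-coding counts the counts were 0 higher and 7 lower, 0 and 2, and 0 and 1 in the same order. Of all genes that scaling gave 2861 and 9293 of 18876, 1712 and 5535, and 979 and 450 of 15744. BOP1 (ENSG00000261236.7), a partner of PES1 and WDR12 in the PeBoW complex, gave 64.2, 69.1 and 72.0 CPM across the NT libraries against 80.1, 84.3 and 81.2 CPM after HOXA9 loss. It rose by 0.26 ± 0.04 there (adjusted p 1.3e-06; 0.01 with scaling to nuclear protein-coding counts) and by 0.12 ± 0.04 in SAFB_KO (-0.02 with that scaling), where its libraries overlapped those of NT. In MEIS1_KO it fell by 0.28 ± 0.06, from 425.2, 359.1, 365.4 and 402.5 CPM to 284.0, 325.4, 322.0 and 348.7 CPM (adjusted p 0.0123). The 3 partners were not alike: PES1 rose by 0.11 ± 0.05 in HOXA9_KO (-0.14 with that scaling), with overlapping libraries, while WDR12 fell by 0.22 ± 0.04. GNL3, or nucleostemin, fell by 0.23 ± 0.04. NOP2, an RNA methyltransferase, rose by 0.23 ± 0.04 in HOXA9_KO and also by 0.23 ± 0.04 in SAFB_KO, from 78.1, 80.4 and 86.5 CPM to 94.9, 96.1 and 96.8 CPM and to 95.5, 93.5 and 98.3 CPM. Of its exon sequence 54.4% also belongs to AC006064.6 on the same strand, so its count is uncertain, and its sign in HOXA9_KO turned with scaling to nuclear protein-coding counts (-0.02). RRP1B rose by 0.11 ± 0.04 in HOXA9_KO (-0.14 with that scaling) and 0.14 ± 0.04 in SAFB_KO and fell by 0.17 ± 0.05 in MEIS1_KO. NIP7 and LYAR rose in SAFB_KO (0.19 ± 0.05 and 0.17 ± 0.05) and stood at 0.06 ± 0.05 and 0.10 ± 0.05 in HOXA9_KO; with scaling to nuclear protein-coding counts both were called lower in HOXA9_KO (-0.20 and -0.15) and neither in SAFB_KO (0.05 and 0.03).

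Of the RNA polymerase I genes, UBTF, which opens the ribosomal DNA, fell by 0.31 ± 0.04 in HOXA9_KO (108 ± 3.06 to 87.3 ± 3.28 CPM; SD, n = 3; adjusted p 1.29e-09). It stood at -0.09 ± 0.04 in SAFB_KO, where with scaling to nuclear protein-coding counts it was called lower (-0.23), and at -0.13 ± 0.05 in MEIS1_KO. RRN3, the initiation factor TIF-IA, rose by 0.25 ± 0.04 in both HOXA9_KO and SAFB_KO, from 50.7, 49.5 and 52.5 CPM to 60.3, 60.8 and 59.9 CPM and to 62.4, 60.2 and 59.5 CPM. Named pseudogenes of RRN3 hold counts equal to 19.2% of its own, reads between them may be shared, and the rise in HOXA9_KO turned to -0.01 with scaling to nuclear protein-coding counts. POLR1A, the largest subunit of the polymerase, rose by 0.22 ± 0.04 in SAFB_KO and stood at 0.06 ± 0.04 in HOXA9_KO, and POLR1B did not pass in either (0.06 ± 0.04 and -0.07 ± 0.04, in the same order). With that scaling POLR1A was not called in SAFB_KO (0.08), and both were called lower in HOXA9_KO (-0.19 and -0.32). None of the 4 passed in MEIS1_KO.

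The calls of the chaperonin pair, whose start region is printed above, changed with the scaling. With TMM, HSPD1 and HSPE1 rose by 0.17 ± 0.03 and 0.13 ± 0.04 in SAFB_KO, stood at -0.06 ± 0.03 and -0.06 ± 0.04 in HOXA9_KO, and at -0.13 ± 0.04 and -0.07 ± 0.07 in MEIS1_KO. With scaling to nuclear protein-coding counts, they were instead called lower in HOXA9_KO, at -0.31 each, and not called in SAFB_KO, at 0.04 and -0.0046. PRMT5 rose by 0.14 ± 0.04 in SAFB_KO (0.0019 with that scaling) and stood at 0.03 ± 0.04 in HOXA9_KO (-0.22 with that scaling, called), with 27.1% of its exon sequence opposite PRMT5-AS1. LDHD, at 5.74 ± 0.142 CPM in NT (5.72, 5.61 and 5.89), lay at 5.93, 4.64 and 4.89 CPM in HOXA9_KO and at 6.22, 6.81 and 7.36 CPM in SAFB_KO. In the MEIS1 set the controls gave 19.2, 22.4, 18.9 and 19.7 CPM and the knockout 19.2, 21.6, 24.6 and 24.2 CPM. LDHD passed in no knockout (-0.16 ± 0.12, 0.25 ± 0.11 and 0.16 ± 0.08), although HOXA9_KO was lower than SAFB_KO by 0.41 ± 0.12 (adjusted p 0.00454). Members outside the calls ran from -0.16 to 0.10 in HOXA9_KO (15 genes), from -0.09 to 0.25 in SAFB_KO (19) and from -0.16 to 0.16 in MEIS1_KO (31). BYSL, TSR1, NOP16, POLR1B, EIF4A1 and LDHD were called in none of the 3 with TMM scaling, but with scaling to nuclear protein-coding counts all 6 were called lower in HOXA9_KO, by -0.41 to -0.16, and TSR1 also in SAFB_KO (-0.13).

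HOXA9 and MEIS1 are often described as partners. The effects of their knockouts were therefore set against each other in a fit of all 17 libraries, each against its own controls. The knockouts belong to different sets of libraries. A difference between the HOXA9 and MEIS1 effects therefore cannot be told apart from a difference between the sets. MEIS1 RNA fell by 1.54 in both HOXA9_KO and MEIS1_KO, while HOXA9 RNA did not pass in MEIS1_KO (-0.11 ± 0.13). HOXA9_KO thus holds a fall of MEIS1 RNA as well, whose part in these values was not tested. The effects differed in 20 of the 40 members: 14 stood higher in HOXA9_KO than in MEIS1_KO relative to controls and 6 lower, where 24.5% and 19.7% of 18836 genes did. FBL, RRP9, BOP1, RRP1B and SRM rose in HOXA9_KO and fell in MEIS1_KO, and the difference passed for each of the 5. It was 0.64 ± 0.07 for FBL (adjusted p 2.01e-09), 0.58 ± 0.09 for BOP1 (adjusted p 1.38e-05), 0.57 ± 0.10 for RRP9 (adjusted p 8.33e-06) and 0.51 ± 0.08 for SRM (adjusted p 2.87e-06). These 4 kept their call under each setting tried, whereas that of RRP1B (0.32 ± 0.06) went to 0.00 with scaling to nuclear protein-coding counts. In NT_MEIS1ex the CPM of FBL, BOP1, RRP9 and SRM was 5.95, 5.67, 3.01 and 12.9 times that in NT. EIF4EBP1, GAR1 (-0.34 ± 0.13), PPAT, NOP58 (-0.32 ± 0.07), PAICS and GNL3 (-0.18 ± 0.06) stood lower in HOXA9_KO. Of these, GAR1 and GNL3 lost their call under some settings, and the others kept it under each. In MEIS1_KO GAR1 stood at -0.10 ± 0.06 and GNL3 at -0.01 ± 0.05, and neither passed. EIF4EBP1, CAD and PAICS fell in both knockouts; the difference for CAD was -0.07 ± 0.07, which did not pass, but -0.40 ± 0.07 with scaling to nuclear protein-coding counts, which did. The count depended on the scaling, with 4 higher and 25 lower when libraries were set to nuclear protein-coding counts (a shift of -0.32 in the median of all genes), and 9 and 14 with a filter at 2 CPM. Of all genes, 1867 were higher and 7777 lower of 18836 with that scaling, and 3403 and 3304 of 11893 with the filter.

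**Figure D5:**
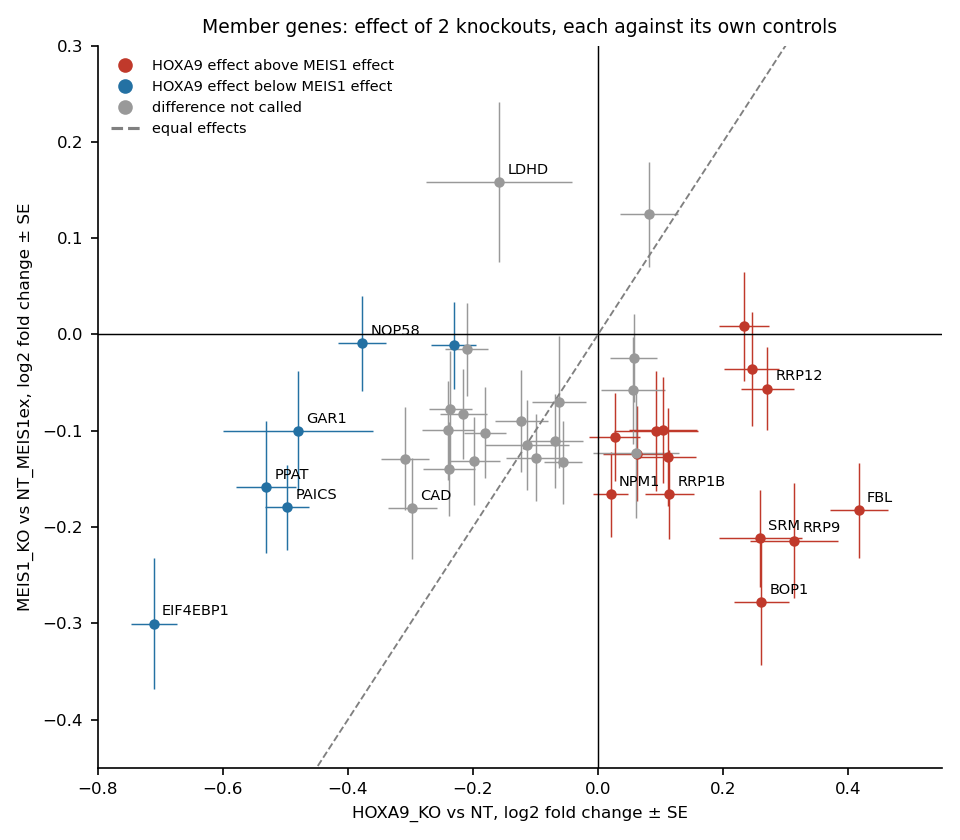
Log2 fold change ± SE of each member in HOXA9_KO against NT (x axis) and in MEIS1_KO against NT_MEIS1ex (y axis); colours give the test of the difference, and the dashed line marks equal effects. FBL, RRP9, BOP1 and SRM stand at the lower right, higher in HOXA9_KO and lower in MEIS1_KO. MEIS1 RNA fell in both knockouts, which belong to different sets of libraries. With scaling to nuclear protein-coding counts RRP9, BOP1 and SRM lie at 0.06, 0.01 and 0.01 in HOXA9_KO.

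MYC itself was called in MEIS1_KO alone with TMM scaling. It gave 195.9, 203.4 and 208.6 CPM (NT), 213.2, 202.2 and 200.8 CPM (HOXA9_KO) and 210.8, 204.9 and 213.3 CPM (SAFB_KO), which overlap throughout (0.02 ± 0.03 and 0.05 ± 0.03, adjusted p 0.633 and 0.261); with scaling to nuclear protein-coding counts the values were -0.23 and -0.09, both called. In MEIS1_KO it fell by 0.24 ± 0.04, from 718.7, 657.8, 702.6 and 713.8 CPM to 580.5, 610.4, 589.8 and 589.7 CPM, with no overlap (adjusted p 0.00265). The 2 effects differed by 0.30 ± 0.06 (adjusted p 0.000168), a difference of -0.02 with scaling to nuclear protein-coding counts. MAX, the dimer partner, rose by 0.12 ± 0.05 in HOXA9_KO and by 0.17 ± 0.05 in SAFB_KO (-0.13 and 0.03 with that scaling), and stood at -0.06 ± 0.05 in MEIS1_KO. MXD proteins compete with MYC for MAX. MXD1, a repressor that rises when myeloid cells mature, went from 31.3, 33.5 and 33.5 CPM in NT to 99.7, 93.2 and 94.9 CPM in HOXA9_KO, a rise of 1.55 ± 0.05 (2.93-fold, adjusted p 2.11e-32), and to 48.0, 43.8 and 47.9 CPM in SAFB_KO, a rise of 0.50 ± 0.05. In MEIS1_KO it rose by 0.24 ± 0.07 (adjusted p 0.0316), from a mean of 23.4 to 27.8 CPM. MXD4 rose by 0.93 ± 0.06 in HOXA9_KO, from 16.3 to 30.8 CPM. Of 12 tested genes of the MYC network 8 rose and 2 fell there, with changes from -0.86 to 1.55, where 27.6% and 29.9% of all genes did. The MXD genes were not alike. In the difference between the HOXA9 and MEIS1 effects MXD3 stood at -1.14 ± 0.15 (adjusted p 9.93e-08), against 1.35 ± 0.08 for MXD1 and 0.89 ± 0.09 for MXD4. The summed myeloid markers, mostly LYZ, were also higher in the knockout libraries, as given above, though FLT3 was lower in HOXA9_KO and SAFB_KO. The part of the markers in these changes was not tested.

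Beside the members, 196 other genes of the same pathways were examined, of which 195 could be tested (MYCN was at 0 in all libraries). In HOXA9_KO 55 of them rose and 74 fell (28.2% and 37.9%, median -0.03), where 27.6% and 29.9% of all genes did. In SAFB_KO 90 rose and 15 fell (46.2% and 7.69%, median 0.10), beside 20.2% and 15.3%. In MEIS1_KO 3 rose and 33 fell (1.54% and 16.9%, median -0.10), beside 4.97% and 3.84%. With scaling to nuclear protein-coding counts the counts were 19 and 150, 20 and 53, and 4 and 26. Of all genes that scaling gave 2861 and 9293 of 18876, 1712 and 5535, and 979 and 450 of 15744. Against SAFB_KO, 103 of the 195 were lower in HOXA9_KO and 20 higher (52.8% and 10.3%), beside 20.5% and 20.1% of all genes. With that scaling they were 148 and 9, beside 5845 and 2449 of 18876 genes. By group, 17 of 45 other genes of the small-subunit processome fell in HOXA9_KO and 9 rose, 20 of 46 other large-subunit genes fell and 9 rose, and 11 of 22 genes of the RNA exosome and snoRNP assembly fell and 4 rose. EXOSC8 and EXOSC9, subunits of the exosome that trims ribosomal RNA, fell by 0.92 ± 0.05 (78.2 to 41.2 CPM) and 0.87 ± 0.05 (51.1 to 28.1 CPM). In nucleotide synthesis 13 of 23 other genes fell in HOXA9_KO and 6 rose. MTHFD2 and SHMT2, mitochondrial enzymes of folate-dependent carbon transfer, fell by 0.70 ± 0.04 and 0.62 ± 0.04 in HOXA9_KO and by 0.61 ± 0.04 and 0.61 ± 0.04 in SAFB_KO. SHMT2 also fell in MEIS1_KO, by 0.30 ± 0.05 from 454 to 370 CPM. Translation factors went the other way in HOXA9_KO, with 7 of 13 higher and 2 lower, but 4 and 7 with that scaling. So did the group of other chaperones, methylation and lactate, with 11 of 19 higher and 2 lower, but 1 and 15 with that scaling. The MYC network had 8 of 12 higher and 2 lower, and 6 and 5 with that scaling. Of 15 other genes of RNA polymerase I and nucleolar chromatin, 1 was higher and 7 were lower. EIF4B, a helper of the initiation helicase, rose by 0.48 ± 0.03 in HOXA9_KO and by 0.41 ± 0.03 in SAFB_KO, from 779 to 1087 and 1037 CPM. EEF2, the elongation factor, rose by 0.30 ± 0.03 in SAFB_KO and fell by 0.28 ± 0.05 in MEIS1_KO. IMPDH1, of guanine nucleotide synthesis, rose by 0.81 ± 0.04 in HOXA9_KO, from 65.1 to 114.3 CPM. AZIN1, which frees ornithine decarboxylase from its inhibitor, rose by 0.34 ± 0.03 in SAFB_KO, where EXOSC8 fell by 0.35 ± 0.04 and EIF2S2, a subunit of the initiation factor eIF2, by 0.22 ± 0.03. SAT1, the acetyltransferase of polyamine breakdown, rose by 0.45 ± 0.07 in MEIS1_KO (26.6 to 36.4 CPM), as did MLXIP of the MYC network (0.19 ± 0.05), while C1QBP, a mitochondrial matrix protein, fell by 0.29 ± 0.05. These genes were read for context, and the lists had been drawn up with earlier results of the data known.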

How the data were processed

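RNA-seq counts per gene were deposited by the authors for 17 libraries of MOLM13 cells, as raw whole-number counts. Per the labels' protocols, total RNA went into a directional kit with rRNA depletion and was sequenced in pairs. Per the submitters' processing notes, the tools were HTSeq 1.99.2, STAR 2.7.10a, bedtools and Trim Galore, with the build hg38; the sources used here do not state what each did, the strand setting or the annotation. Rows that name no gene were left out of library sizes: reads with no feature made up 6.07% to 18.1% and ambiguous reads 6.09% to 12.2%. Symbols were found for 57392 of 58278 identifiers; coordinates and exon lengths came from GENCODE 29, which matched 57895.

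Counts were tested in R 4.3.3 with edgeR 4.0.16 (TMM factors, filterByExpr with a minimum count of 10 and total of 15, robust quasi-likelihood F test, Benjamini-Hochberg adjustment over all genes tested, calls under 0.05). NT, HOXA9_KO and SAFB_KO entered a fit of 9 libraries, the MEIS1 set a fit of 8, and the difference between the HOXA9 and MEIS1 effects a fit of 17. The SE is the log2 fold change divided by the square root of F. The scripts were tested on simulated counts. Per-library values are given for the 5 called members with the largest change each way per knockout, and for NCL, NPM1, FBL, EIF4EBP1, ODC1 and LDHD. For the 4 each way in the other 2 contrasts they are given in part. Those of BOP1 in SAFB_KO and of GAR1, PPAT and NOP58 in the MEIS1 set are not all printed. Pathway genes named are MYC, MAX, up to 4 called each way per knockout by smallest p, and MXD3. The members and lists were chosen with earlier results of these data known. Alternatives were RLE factors, scaling to nuclear protein-coding counts, mitochondrial genes left out, a filter at 2 CPM or none, limma-voom (limma 3.58.1), DESeq2 1.42.0, a replicate term, only the groups compared, a 1.2-fold condition and leaving out each library.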

Additional observations from a re-analysis of the deposited data

Results flagged for a closer look

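In the groups of 4 libraries, 5 of the 80 sets of member values held 1 library farther from the others than Dixon's 95% limit for 4 values allows, and chance gives about 1 in 20. NCL stood at 1014.1 CPM in NT_MEIS1ex replicate 1 against 903.6 to 921.8 CPM in the other 3. PPAT stood at 50.007 CPM in the same library against 61.4 to 62.4 CPM. UBTF stood at 169.54 CPM in MEIS1_KO replicate 1 against 176.6 to 176.9 CPM, and SRM at 206.11 CPM in that library against 219.7 to 221.5 CPM. TSR1 stood at 100.13 CPM in MEIS1_KO replicate 4 against 104.8 to 105.4 CPM.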

How the results depend on the processing

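Scaling each library to its nuclear protein-coding counts gave 1 member higher and 33 lower in HOXA9_KO, 3 and 12 in SAFB_KO, 1 higher in HOXA9_KO against SAFB_KO, and 4 and 25 in the difference between the HOXA9 and MEIS1 effects. Of all genes it gave 2861 higher and 9293 lower of 18876 in HOXA9_KO, and 1712 and 5535 in SAFB_KO. It gave 2449 and 5845 in HOXA9_KO against SAFB_KO, and 1867 and 7777 of 18836 in the difference. The cause was not tested. A mean of at least 2 CPM gave 13 and 3 members in SAFB_KO (2780 and 2727 of 11793 genes). In the difference it gave 9 and 14 (3403 and 3304 of 11893 genes). In SAFB_KO 2 members were lower with limma-voom and 3 with only the 2 groups compared. A 1.2-fold condition left 3 higher and 7 lower in HOXA9_KO, 2 higher in SAFB_KO, 2 lower in MEIS1_KO, 0 higher and 10 lower in HOXA9_KO against SAFB_KO, and 9 higher in the difference.

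Leaving out 1 library at a time gave 8 to 10 higher and 15 to 17 lower in HOXA9_KO, 15 to 20 and 1 to 2 in SAFB_KO, 0 to 0 and 2 to 11 in MEIS1_KO, 1 to 3 and 22 to 25 in HOXA9_KO against SAFB_KO, and 12 to 15 and 5 to 9 in the difference. In SAFB_KO the count of 2 lower came without NT replicate 1, NT replicate 3 or SAFB_KO replicate 3, and in HOXA9_KO against SAFB_KO the count of 1 higher without SAFB_KO replicate 1. With the replicate block, counts were 9 and 16, 20 and 2, 0 and 7, 2 and 26, and 13 and 6 in the same order. Same-numbered libraries deviated from their group means with correlations of -0.25 to 0.09, and not every library correlated best with its own number, so the numbers were not taken as a pairing.

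In 39 cases a member called under at least 1 of the settings compared changed sign, each time with scaling to nuclear protein-coding counts, which moves all genes together. In HOXA9_KO the values became NPM1 -0.23, NHP2 -0.19, PNO1 -0.19, NOP2 -0.018, NOP16 -0.16, PES1 -0.14, RRP1B -0.14, NIP7 -0.20, LYAR -0.15, POLR1A -0.19, RRN3 -0.0057, EIF4A1 -0.17 and PRMT5 -0.22. In SAFB_KO they became NPM1 -0.0037, NOP56 -0.10, DKC1 -0.10, NOLC1 -0.040, NOP14 -0.010, TSR1 -0.13, BOP1 -0.023, WDR12 -0.13, GNL3 -0.13 and HSPE1 -0.0046. In HOXA9_KO against SAFB_KO that of NOP2 became -0.11. In the difference they became NPM1 -0.093, NHP2 -0.093, NOP14 -0.31, BYSL -0.28, TSR1 -0.25, NOP2 -0.054, NOP16 -0.085, PES1 -0.040, LYAR -0.076, POLR1A -0.20, POLR1B -0.24, EIF4A1 -0.32, HSPD1 -0.20, HSPE1 -0.27 and PRMT5 -0.15. Depth set little limit, with at least 140 reads behind each member in each library, but 3 or 4 libraries a group limit what small changes can be called.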
